A study of Mus musculus with 17 samples.

Results

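The regions described here carried a WT1 peak in vehicle glomeruli and in all 3 podocyte peak lists, and none in glomeruli after adriamycin. They were chosen by the presence and absence of deposited peaks: peaks of the 5 lists were merged when they overlapped or touched, and a region was kept when PBS glomeruli, PBS podocytes, day 9 and day 14 ADR podocytes each had a peak in it and ADR glomeruli had none. The rule found 1436 of 41766 merged regions. Because peak calls chose them, their absence from ADR glomeruli and their presence in the 4 other lists are the definition of the set and not a finding.

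WT1 is a transcription factor with zinc fingers, without which podocytes neither form nor persist. Podocytes are the epithelial cells that wrap the glomerular capillaries, and WT1 binds at genes of their slit diaphragm, cytoskeleton and basement membrane, both near gene starts and at distant enhancers. Adriamycin (doxorubicin, ADR) injures podocytes and is a common model of glomerular scarring in BALB/c mice. In a chromatin immunoprecipitation with sequencing (ChIP-seq), a peak is a stretch with more precipitated fragments than its background.

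All mice were labelled wildtype and aged 7 to 8 weeks. Isolated glomeruli of BALB/cJ mice gave 4 libraries after PBS, the vehicle, and 4 after ADR, with no day stated for either. The strain mT/mG-Nphs2cre, whose Cre is driven by the promoter of the podocin gene so that podocytes carry the reporter, was the source of purified podocytes and gave 3 libraries after PBS, 2 at day 9 after ADR and 2 at day 14. Each glomerular immunoprecipitation used glomeruli from a pair of kidneys, and 2 input libraries came from glomeruli. Strain and tissue preparation differed together between glomeruli and podocytes and cannot be told apart.

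One peak list stood for each group, so no value below has a replicate check and no test between groups was possible. In glomeruli the lists held 29082 peaks after PBS and 16634 after ADR. In podocytes they held 23402 after PBS, 31949 at day 9 and 6694 at day 14. Read depth per library was not used here. Intervals are 95% binomial intervals over regions, which cover counting error only and treat regions as independent, which neighbouring regions are not. Regions are given in mm9 coordinates. Genes near them were not assigned and no sequence is printed, since the gene table at hand is of another build, so the podocyte label was not checked against marker genes either.

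Absence from ADR glomeruli grew less common the more other lists held a peak. Of the 28265 regions with a PBS glomerular peak, 15033 (53.2%) had no ADR glomerular peak. Adding a PBS podocyte peak left 7787 of 18613 regions without one (41.8%), and adding a day 9 peak left 6983 of 17385 (40.2%). With a day 14 peak as well, 1436 of 6102 remained, or 23.5% (95% Wilson interval 22.5 to 24.6). Both 53.2% and 23.5% come from the contrast the rule used and serve only as the background. Isolated glomeruli hold endothelial and mesangial cells beside podocytes, so fewer podocytes in the ADR preparation and less WT1 on the chromatin of each podocyte cannot be told apart in these lists.

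Single absences elsewhere were distributed unevenly. The number of regions missing from exactly 1 list was 51 for PBS glomeruli, 50 for PBS podocytes, 2 for day 9, 5736 for day 14 and 1436 for ADR glomeruli. The day 14 and ADR glomerular lists were also the shortest, so list length moved with these counts, and its part in them was not tested.

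The members included some of the strongest WT1 sites of the lists that held them. The best case was chr2:68918483-68919411, which had the highest fold enrichment among members in PBS glomeruli (34.2-fold, the authors' value), PBS podocytes (63.2-fold) and day 9 podocytes (84.1-fold), and the fifth highest at day 14 (19.5-fold). Its nearest ADR glomerular peak lay 3183 bp away. In every list that held it, its peak ranked at or above percentile 96.6.

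A region at chr1:19889270-19890030 stood highest when each member was scored by its lowest percentile over the 4 lists. Its enrichment was 28.8-fold in PBS glomeruli, and in podocytes 56.6-fold after PBS, 64.6-fold at day 9 and 21.4-fold at day 14, with no percentile below 97.5. No ADR glomerular peak lay within 754286 bp of it. Of similar kind were chr10:26185017-26185819 (23.0-fold, 44.8-fold, 62.5-fold and 19.3-fold in the same order), chr5:18686447-18687289 (31.4-fold, 48.4-fold, 74.5-fold and 18.4-fold) and chr15:95046520-95048172 (27.3-fold, 52.1-fold, 73.0-fold and 17.4-fold). These 5 regions were high in vehicle and injured podocytes and in vehicle glomeruli alike.

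Other members were among the strongest of single lists. The region chr5:32370755-32371693 had the highest day 14 enrichment of all members (29.8-fold) and 62.1-fold and 81.0-fold enrichment in PBS and day 9 podocytes, and 16.1-fold in PBS glomeruli. At chr15:92107208-92107889 enrichment was 51.9-fold, 79.2-fold and 28.9-fold in the 3 podocyte lists (PBS, day 9, day 14) and 12.4-fold in PBS glomeruli. At chr2:132502473-132503067, PBS glomeruli had 31.0-fold enrichment and podocytes 37.5-fold after PBS, 23.5-fold at day 9 and 12.8-fold at day 14, which were percentiles 99.6, 98.4, 91.6 and 88.7 of their lists. Fold values are not on one scale across lists, so ranks within a list are the safer guide. The lowest percentile over the lists was 88.0 for the first of these 3 regions and 78.3 for the next.

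The remaining strongest members lay at chr18:27450372-27451101 (31.2-fold in PBS glomeruli), chr15:35579220-35580110 (30.6-fold in PBS glomeruli), chr17:7056595-7057559 (77.0-fold at day 9) and chr2:171241575-171242172 (20.3-fold at day 14). The chromosome 17 region ranked lowest at day 14 (8.81-fold, percentile 74.6). In all, 26 of the 1436 members were above percentile 90 in each of the 4 lists, 164 above percentile 75 in each, and 7 below percentile 50 in each. The same counts were not computed for regions with an ADR glomerular peak, so they are a description only and do not show that members were stronger than those regions.

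Within each list, the members' median rank lay below that of the regions in all 5 lists. Both sets were chosen by peak calls, and the second also by a call in ADR glomeruli. The ranks of either set, and the distance between them, are therefore a description and not a trait of the members. The lists differ in length, so a percentile sets members beside other regions of the same list and shows no change from list to list. The members' median percentile of fold enrichment was 79.1 (interval 77.0 to 80.7) in PBS glomeruli. In podocytes it was 84.0 (83.0 to 85.0) after PBS, 88.3 (87.8 to 88.9) at day 9 and 48.6 (47.8 to 50.7) at day 14. The 4666 regions with a peak in all 5 lists had medians of 87.1, 85.6, 89.4 and 54.0. By fold enrichment the distance between the medians of both sets was widest in PBS glomeruli. Ranked by caller p it was widest at day 14, where the medians were 32.8 and 60.5, against 77.1 and 88.6 in PBS glomeruli. In PBS glomeruli, 26.3% of members lay in the top decile of the list against 41.7% of the regions in all 5 lists. In podocytes the shares were 31.0% and 37.1% after PBS, 43.2% and 48.1% at day 9, and 2.58% and 13.4% at day 14. The rule required a peak in the day 14 list, the shortest. The 5736 regions missing only from that list had median percentiles of fold enrichment of 58.8 in PBS glomeruli, 37.0 in PBS podocytes and 43.8 at day 9.

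**Figure D1:**
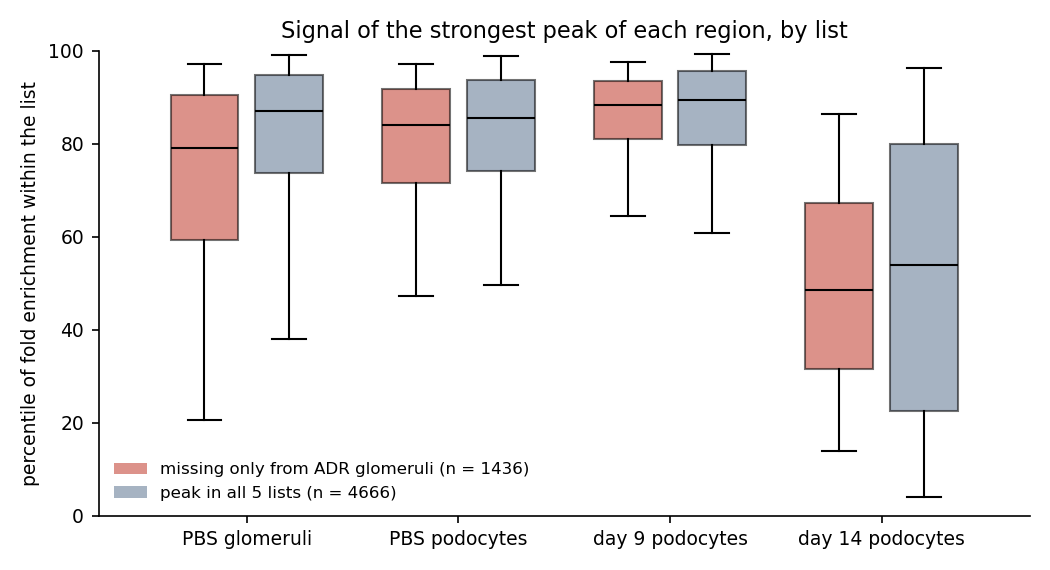
Percentile of fold enrichment of the strongest peak of each region within its list (vertical axis, 0 to 100) for the 4 lists on the horizontal axis, for the 1436 regions missing only from ADR glomeruli (red) and the 4666 regions with a peak in all 5 lists (blue). Boxes span the quartiles with the median as a line and whiskers run from percentile 5 to percentile 95 of the regions; the boxes overlap widely in every list, and the red median lies below the blue one in each.

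Fold enrichment at a member in one list went with that in the others, least so between glomeruli and injured podocytes. Across the 1436 members, Spearman's rho of fold enrichment was 0.54 between PBS glomeruli and PBS podocytes, 0.63 between PBS and day 9 podocytes, 0.61 between day 9 and day 14, and 0.30 between PBS glomeruli and day 14. For the regions in all 5 lists the same values were 0.58, 0.78, 0.87 and 0.43. These describe rank agreement over regions of the same lists, which are not independent replicates.

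Most members held a single peak per list with its summit at nearly the same place. Their merged width ran from 351 to 2059 bp with a median of 662 bp. Within a list, the median width of a member's strongest peak was 422.5 bp in PBS glomeruli and 625 bp at day 9, against 536 and 741 bp for regions in all 5 lists. One peak per list made up 1381 members (96.2%). The 4 summits of a member, taken from the strongest peak of each list, lay within a median of 52 bp of one another, and 83.6% of members had all 4 within 100 bp. Regions in all 5 lists gave 45 bp and 83.7%.

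A few members were composite. Up to 7 peaks fell in one member, and 8 members reached that number, among them chr10:5958960-5959949, chr11:111439406-111440496, chr15:3219201-3221259, chr15:95046520-95048172 and chr3:51672137-51673499. The last had 3 peaks in PBS glomeruli and, in podocytes, 1 after PBS, 1 at day 9 and 2 at day 14. Of these 5, the region at 95046520 on chromosome 15 was strong throughout, while that on chromosome 10 reached only percentile 10.6 in its weakest list.

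Distances from members to ADR glomerular peaks varied widely. The rule bars an overlap, and the same distances were not computed for other regions, so they are a description only. The nearest ADR glomerular peak lay a median of 27744 bp from a member. It was within 1 kb for 56 members (3.90%), within 10 kb for 407 (28.3%) and more than 100 kb away for 310 (21.6%). The farthest lay 4488826 bp from chr1:29239513-29240192, a strong site with 21.6-fold enrichment in PBS glomeruli and, in podocytes, 27.9-fold after PBS, 49.5-fold at day 9 and 13.7-fold at day 14. Next came chr1:104758901-104759642 and chr1:117408631-117409649, with 7.57-fold and 7.89-fold enrichment in PBS glomeruli, and then chr18:29698538-29699096 and chr18:29862935-29863800, with 9.35-fold and 21.2-fold.

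Members just inside the rule were those almost touched by an ADR glomerular peak. That at chr16:33024104-33024655 was 10 bp from one, with 6.23-fold enrichment in PBS glomeruli and 4.30-fold in PBS podocytes. Those at chr10:98377342-98378380, chr18:76218664-76219399, chr2:13306991-13307959 and chr6:114832199-114833166 were 116, 161, 189 and 190 bp away. Just outside the rule were regions in all 5 lists with the faintest ADR glomerular peaks. The first 5 had −log10 q values from 1.51 to 1.68 there, and folds of 3.15 to 3.48. Their PBS glomerular enrichment ran from 6.89-fold at chr10:67588440-67588969 to 25.7-fold at chr6:24480285-24481443. For the 5 members nearest to an ADR glomerular peak, PBS glomerular enrichment ran from 6.21-fold to 17.1-fold.

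Where PBS glomerular signal was highest, ADR fold enrichment ranged widely. The 5 regions in all 5 lists with the highest PBS glomerular enrichment had 34.4-fold to 34.8-fold there. In ADR glomeruli they had 37.0-fold at chr1:174366639-174367559, 36.1-fold at chr16:50785501-50787303, 30.5-fold at chr13:58136595-58137604, 20.5-fold at chr4:87611555-87612364 and 15.4-fold at chr15:95039517-95040257. In the same order these were percentiles 99.9, 99.8, 99.3, 95.5 and 89.5 of the ADR glomerular list, so all 5 ranked high there. The member chr2:68918483-68919411, at 34.2-fold in PBS glomeruli, had no ADR peak. The last of the 5, with the lowest ADR value of them, lies in the same neighbourhood as the strong member chr15:95046520-95048172, whose nearest ADR glomerular peak was 1067 bp away.

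Members also differed from regions in all 5 lists in how caller p-value and fold enrichment went together. The caller's p depends on the number of reads at the peak as well as on their ratio to the local background. At 10-fold to 15-fold enrichment in PBS podocytes, the median −log10 p was 38.1 for 431 members and 70.3 for 1333 regions in all 5 lists. At day 9 the medians in the same range of enrichment were 39.9 for 302 members and 85.7 for 905 regions. In PBS glomeruli the gap was smaller, 29.6 for 404 members against 34.5 for 1304 regions. At day 14, members of 5-fold to 10-fold enrichment had 13.6 (1046 members) and the others 20.8 (2190 regions). The members' median was the lower in every range of enrichment that held at least 20 members, 5 of 5 ranges in PBS glomeruli, in PBS podocytes and at day 9, and 3 of 3 at day 14.

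**Figure D2:**
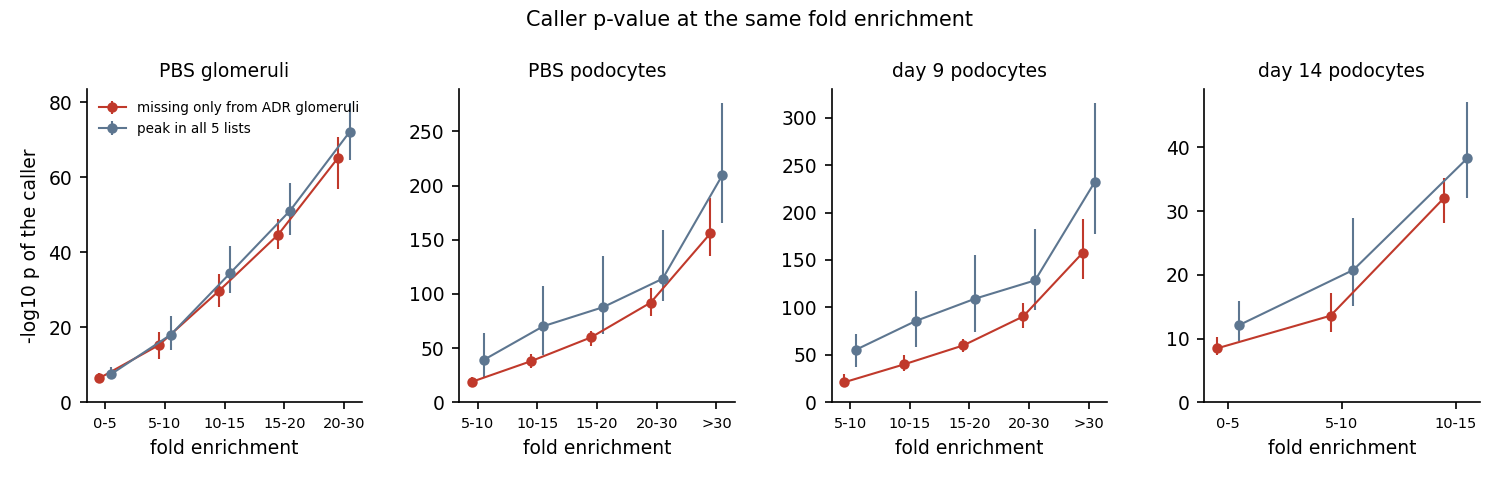
Median −log10 p of the caller (vertical axis, points; bars span the quartiles over regions) in ranges of fold enrichment (horizontal axis) for regions missing only from ADR glomeruli (red) and regions with a peak in all 5 lists (blue), 1 panel per list with its own vertical scale. Only ranges with at least 20 regions of each set are drawn; red points lie below blue points in each range, with the widest gaps in PBS and day 9 podocytes.

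These pairs of values were turned into a local background. The caller was taken to add 1 read to both the pileup and the background before dividing one by the other, and to give p from the Poisson distribution with that background as its mean. This form is inferred from the values. The solved values gathered at 1 floor per podocyte list, with modes of 2.1 reads after PBS and 2.0 in each of the injured lists. Above the floor they rose in steps near whole reads. For many glomerular peaks the solution fell at the lower limit of the search, so the glomerular lists were left out, and so were peaks with a −log10 p of 300 or more. At day 9 this p limit kept 1425 of 1436 members and 4231 of 4666 regions in all 5 lists. The shares by background below therefore leave out more regions with an ADR glomerular peak than without one.

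Members lay mostly on that floor, while regions in all 5 lists mostly did not. In PBS podocytes the median implied background was 2.13 reads (interval 2.13 to 2.14) at 1434 members and 4.91 reads (4.75 to 4.96) at 4562 regions in all 5 lists. At day 9 it was 2.01 (2.01 to 2.01) and 4.88 (4.50 to 4.95), and at day 14 it was 2.0 (1.99 to 2.03) and 4.40 (4.15 to 4.64). Up to 2.5 reads were implied at 66.1% of members after PBS, 68.9% at day 9 and 69.8% at day 14. For regions in all 5 lists the shares were 25.6%, 26.6% and 27.8%.

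**Figure D3:**
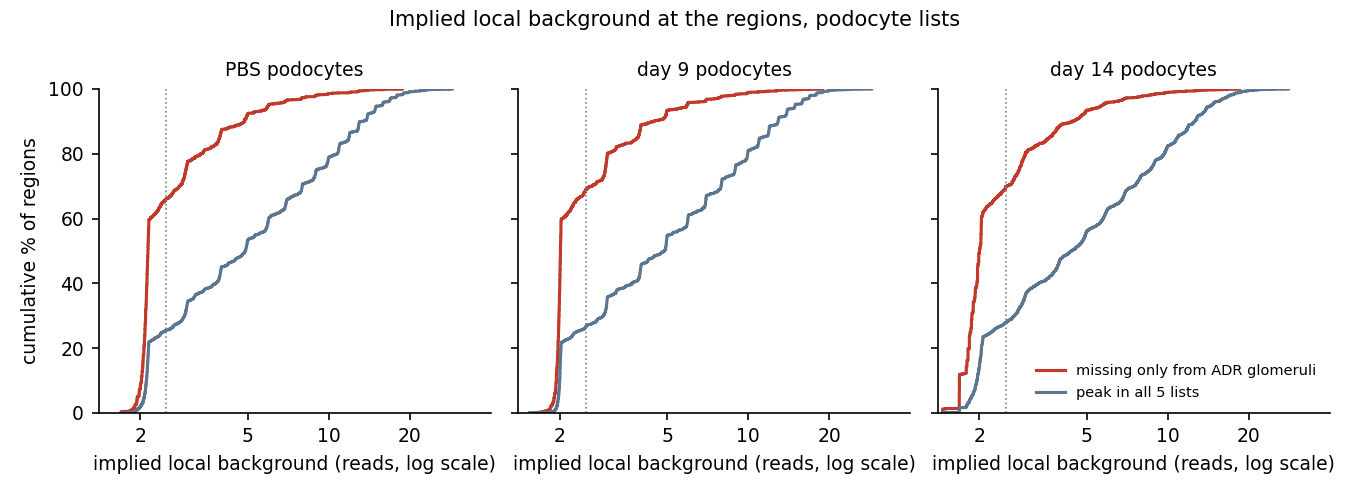
Cumulative percent of regions (vertical axis) by implied local background in reads (horizontal axis, log scale) in the 3 podocyte lists, for regions missing only from ADR glomeruli (red) and regions in all 5 lists (blue). The dotted line marks 2.5 reads; 66.1%, 68.9% and 69.8% of members lie to its left, against 25.6%, 26.6% and 27.8% of the regions in all 5 lists.

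The share of regions without an ADR glomerular peak was lower where this podocyte background was higher. Among regions with a peak in the 4 other lists, it was 46.6% (44.4 to 48.7) where the day 9 background was at most 2.5 reads, 22.8% (20.8 to 24.9) from 2.5 to 5 reads, 6.59% (5.32 to 8.14) from 5 to 10 reads and 1.84% (1.12 to 3.01) above 10 reads. With the PBS podocyte background the shares were 44.8%, 23.0%, 7.09% and 2.13%. With no day 14 peak required they were 68.5%, 47.8%, 25.4% and 12.9% by day 9 background. With a −log10 q of at least 10 in each of the 4 other lists, and the ADR glomerular list as deposited, they were 33.5%, 16.2%, 4.82% and 0.361%. The order of the 4 ranges was the same in each of these.

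At a fixed fold enrichment the implied background is another expression of the caller p of the same list, and at a fixed p it is another expression of the fold. Splitting a day 9 range of either by day 9 background therefore restates how p and fold go together, as given above, and is no further check. At 10-fold to 15-fold enrichment at day 9, 168 of 237 regions on a background up to 2.5 reads had no ADR glomerular peak (70.9%, 64.8 to 76.3), against 39 of 696 on a background over 5 reads (5.60%, 4.13 to 7.57). At 20-fold to 30-fold the shares were 49.5% and 4.01%, and above 30-fold 26.6% (of 790) and 2.33% (of 43). Matched on caller p, at a day 9 −log10 p from 60 to 80, 61.9% of 341 regions on low background and 5.04% of 258 on raised background had none. Matched on PBS glomerular signal, which is a value of another list, at 10-fold to 15-fold, the shares were 46.2% of 599 and 3.79% of 633. Within the low-background regions the share fell as enrichment rose, from 72.8% to 26.6%, and within the raised-background regions it was 2.33% to 5.60% over the ranges of day 9 enrichment. Over the ranges of PBS glomerular p the raised-background share was at most 9.69% except in the weakest, a −log10 p up to 10, where it was 29.5% (13 of 44) against 67.5% (81 of 120) on low background.

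**Figure D4:**
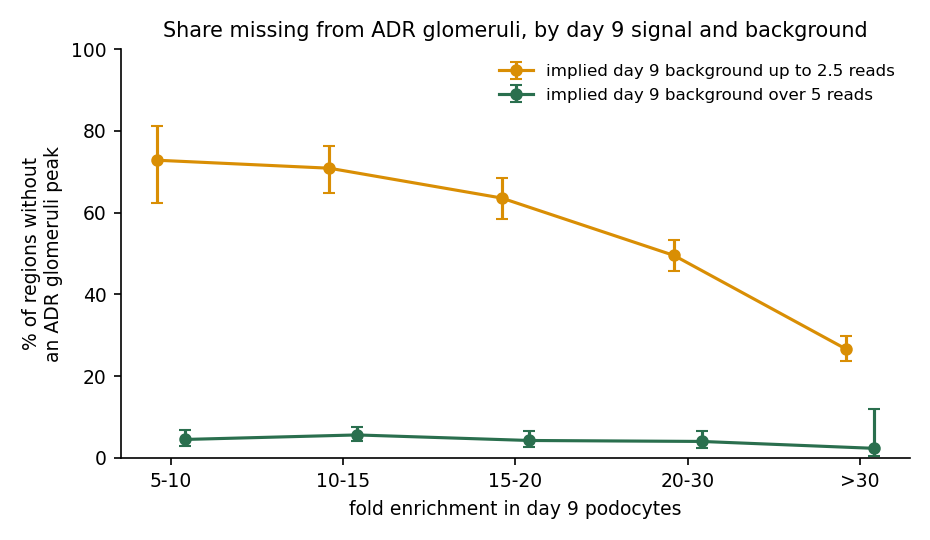
Percent of regions without an ADR glomeruli peak (vertical axis) by fold enrichment in day 9 podocytes (horizontal axis), among regions with a peak in the 4 other lists, for an implied day 9 background up to 2.5 reads (orange) and over 5 reads (green). Bars are 95% Wilson intervals over regions; the orange points fall from 72.8% to 26.6% and the green points stay at 5.60% or below.

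The 5736 regions missing only from day 14 podocytes had other values. They had an ADR glomerular peak and a median implied background of 8.61 reads at day 9 and 8.98 in PBS podocytes, with up to 2.5 reads at 7.44% and 6.68%. Their fold enrichment was low, with a median of 5.35-fold in PBS podocytes and 6.204-fold at day 9, against 13.3-fold and 19.5-fold at the members. Regions missing from both ADR glomeruli and day 14 (5547) had a median background of 2.91 reads at day 9. With 1 list per group these differences between sets of regions were not tested. What sets the local background around a peak in the podocyte lists, and which control entered the calling, is not given in the sources used here, and the part of either in the absence from ADR glomeruli was not tested.

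Members were found on all autosomes and the X chromosome in unequal shares. Of the regions with a peak in the 4 other lists, 30.8% (26.6 to 35.3) had no ADR glomerular peak on chromosome 1 and 28.4% (23.9 to 33.4) on chromosome 10, while chromosome 17 had 18.8% (14.6 to 23.9), chromosome 7 had 18.9% (15.2 to 23.3) and chromosome 11 had 19.2% (15.7 to 23.2). Neighbours in this order had overlapping intervals, while that of chromosome 1 did not reach those of chromosomes 17, 7 and 11. Chromosome 1 held 133 members, more than any other. The share of regions at low day 9 background was 44.7% on chromosome 1, 48.0% on chromosome 10, 21.4% on chromosome 11 and 32.9% on chromosome 17. It was highest on the X chromosome (56.6%), where 27.3% of regions had no ADR glomerular peak. Over the 20 chromosomes both shares had a Spearman's rho of 0.74, given as a description since they come from the same regions.

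**Figure D5:**
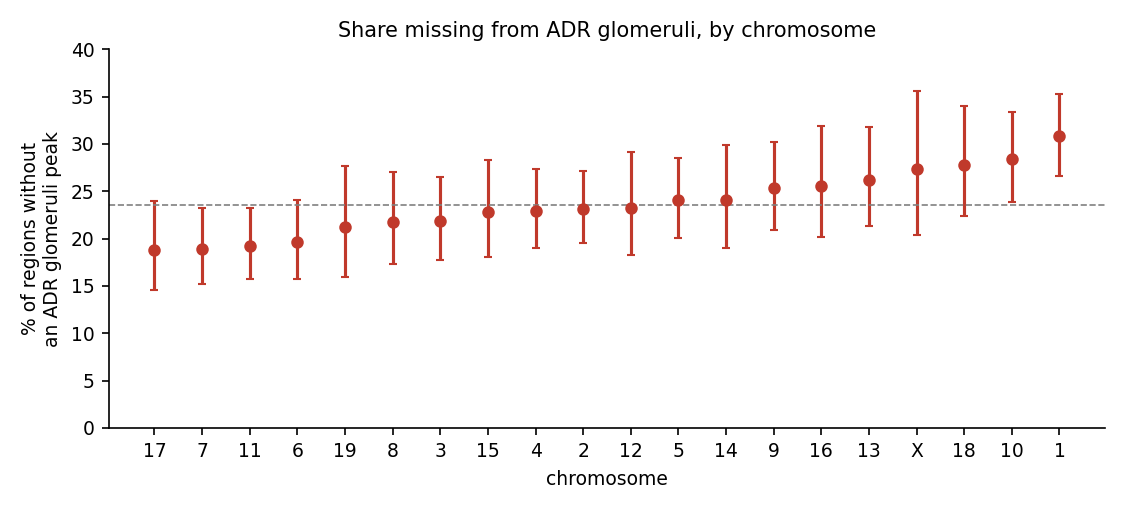
Percent of regions without an ADR glomeruli peak (vertical axis), among regions with a peak in the 4 other lists, by chromosome (horizontal axis, in order of the share). Bars are 95% Wilson intervals over regions and the dashed line is the share over all chromosomes, 23.5%; chromosomes 17, 7 and 11 are lowest and chromosomes 10 and 1 highest.

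The nearest PBS glomerular neighbour of a member less often had an ADR glomerular peak than that of a region in all 5 lists. The nearest other region with a PBS glomerular peak had an ADR glomerular peak for 471 members (32.8%, 30.4 to 35.3), against 48.2% (46.8 to 49.7) of regions in all 5 lists. Of all regions with a PBS glomerular peak, 46.8% had an ADR glomerular peak themselves, which is not a share of neighbours. Members were somewhat more isolated. Their nearest region of any list lay a median of 4374 bp away, against 3074 bp, and 7.52% (6.27 to 9.001) had no other region within 50 kb, against 5.08% (4.49 to 5.75).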

How the data were processed

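WT1 ChIP-seq peaks were analysed from 15 immunoprecipitation libraries in 5 groups, assigned by sample titles. Per the submitters' processing notes, the build was mm9, the aligner Bowtie 0.12.7 and the peak caller MACS2. Cutoff, control and pooling of replicates are not stated. For each group 1 narrowPeak list was deposited by the authors. Its fold enrichment (a ratio) and its −log10 p and −log10 q are the authors' deposited values. The deposited integer score equals the −log10 q scaled and was not used. Start, end and summit are given 1-based.

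Peaks that overlapped or touched were merged. For each region and list the peak of highest fold enrichment was taken and ranked within its list. Shares carry 95% Wilson intervals and medians binomial order-statistic intervals. The implied background was solved per peak and recovered on peaks simulated with the same assumed form, as were simulated classes of regions. This checks the computation and not whether that form holds for these lists. Named regions were the 5 strongest members of each list, the 5 with the highest lowest percentile, the 5 with most peaks (8 tied, first 5 by position), the 5 nearest to and farthest from an ADR glomerular peak, and 2 sets of 5 outside the rule. The members and lists were chosen with earlier results of these data known, and the background analysis was added after seeing the values. No test between groups was made. Alternatives were another q, merging distance, match rule, ranking and a rule without day 14. Computation used scipy 1.17.1, numpy 2.4.6, pandas 2.3.3 and matplotlib 3.10.9 under Python 3.11.15.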

Additional observations from a re-analysis of the deposited data

How the results depend on the processing

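The number of members stayed within 1.5 times 1436 under 6 alternatives. One of these, a −log10 q of at least 10 in all 5 lists, gave 1281, but it also counts regions whose deposited ADR glomerular peak lies below that q. The number left that range under 2: with that q in the 4 lists and the ADR glomerular list as deposited it was 614, and with day 14 left out of the rule 6983. The share without an ADR glomerular peak, 23.5% as reported, was 15.4% and 40.2% in these 2 cases, 32.1% with that q in all 5 lists, 24.9% when summits had to lie within 200 bp, and 21.8% with the PBS glomerular list trimmed to the length of the ADR list, the one alternative chosen after seeing the data. It stayed within its interval when peaks within 500 bp were merged, when a match had to cover 50% of the shorter peak and when a peak within 1 kb counted. Ranked by caller p, the members' median percentile was 77.1 in PBS glomeruli, against 88.6 for regions in all 5 lists, and 76.1, 83.6 and 32.8 in podocytes after PBS, at day 9 and at day 14, while those regions had 88.1, 91.4 and 60.5. With the stricter q it was 76.2 in PBS glomeruli and, in podocytes, 86.2 after PBS, 89.7 at day 9 and 52.8 at day 14. Averaging the peaks of a region kept each median within its interval. The cause of these shifts was not tested, beyond the fewer peaks a stricter q leaves. No paired analysis was possible because the libraries of a group share 1 peak list, so leaving out a replicate was not possible either. The WT1 motif share and the genomic location, with their alternatives, were not run for want of a genome and annotation of the files' build.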

Other observations

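In fixed windows of 100 kb, most windows that held a member held only 1. Of the 1239 windows with a member, 1073 held 1, 139 held 2, 23 held 3 and 4 held 4. The numbers to be expected from the spread of all regions were not computed, so these counts do not show whether members were scattered or clustered. No ADR glomerular peak summit fell in 472 of the 1239 windows (38.1%), and these windows held 524 members. Of the 166 windows with at least 2 members, 45 had none. The same shares were not computed for windows without a member, so they are a description and not a trait of the members.

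The 4 windows with 4 members were picked after their counts were seen. They lay at chr14:22900001-23000000 (10 regions of any list, 1 ADR glomerular peak), chr9:15500001-15600000 (12 regions, 2 ADR peaks), chr5:73600001-73700000 (18 regions, 3 ADR peaks) and chr5:93500001-93600000 (19 regions, 5 ADR peaks). Each held at least 1 region with a peak in all 5 lists, so that present and absent ADR glomerular peaks stood side by side within them.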
